A study of Mus musculus with 12 samples.

Results

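The antigen-processing genes described here are 10 of the 22195 genes measured in mouse melanoma tumours. They were chosen by name as the 3 catalytic subunits of the immunoproteasome (Psmb8, Psmb9 and Psmb10), the 3 constitutive subunits whose places they take (Psmb5, Psmb6 and Psmb7), the subunits of the PA28 activator (Psme1 and Psme2) and the peptide transporter (Tap1 and Tap2). Each of the 10 passed the filter on low counts, which left 13478 genes. Tumours were grown under the skin of immunocompetent C57BL/6J mice from YUMM2.1, a mouse melanoma line that the series title places among β-catenin-driven melanomas. Antibody dosing began at a tumour volume of 20 to 50 mm3. The isotype control group received control IgG, the anti-B7-H3 group an antibody to B7-H3 (an inhibitory protein of the B7 family, encoded by Cd276), the anti-PD1 group an antibody to PD1, an inhibitory receptor of T cells, and the combination group both of these. Each of the 4 groups has 3 RNA-seq libraries from whole tumours, and all share the line, the host strain and the grafting. YUMM2.1 is 1 line, the hosts keep their own immune system, and the sources used here do not give the age of the mice.

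The proteasome is the barrel-shaped protease that cuts ubiquitin-tagged proteins into peptides. Cells exposed to interferon gamma, and many leukocytes without it, build new barrels with Psmb8, Psmb9 and Psmb10 in place of Psmb5, Psmb6 and Psmb7, which shifts cutting towards peptides that fit MHC class I. PA28, a ring of Psme1 and Psme2 products, opens the barrel, and the Tap1-Tap2 transporter carries the peptides into the endoplasmic reticulum, where they are loaded onto class I molecules for display to CD8 T cells. Tumours with low levels of these genes are known to show fewer peptides to T cells.

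The libraries of the 4 groups differ widely in what they hold, and this touches every comparison with isotype control. Sequences of 12 satellite-like genes took 90.3% to 93.7% of reads in isotype control libraries, 68.7% to 74.5% with anti-PD1, 30.1% to 34.0% with combination and 0.0944% to 0.222% with anti-B7-H3 libraries. Reads outside them ran from 1340740 to 1512904 per isotype control library and from 3570071 to 3917954 per anti-B7-H3 library. A background of reads was estimated from 1545 olfactory, vomeronasal and taste receptor genes, a class with little known transcription outside sensory tissue. It stood at 6.94 to 7.89 reads per kilobase in isotype control, 5.07 to 5.50 with anti-PD1, 0.645 to 0.766 with combination and 0.0841 to 0.0980 with anti-B7-H3 libraries. The expected background was 76.2% of Psmb9 reads in isotype control libraries, 51.9% of Tap1, 48.2% of Tap2 and 34.4% of Psmb8 reads. For the other 6 members it was between 12.4% and 25.4%, and in anti-B7-H3 libraries it was at most 0.0341% for any member. Nothing in the labels ties a library to a mouse of its own, so p-values measure the spread between these libraries, which may be technical.

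**Figure D1:**
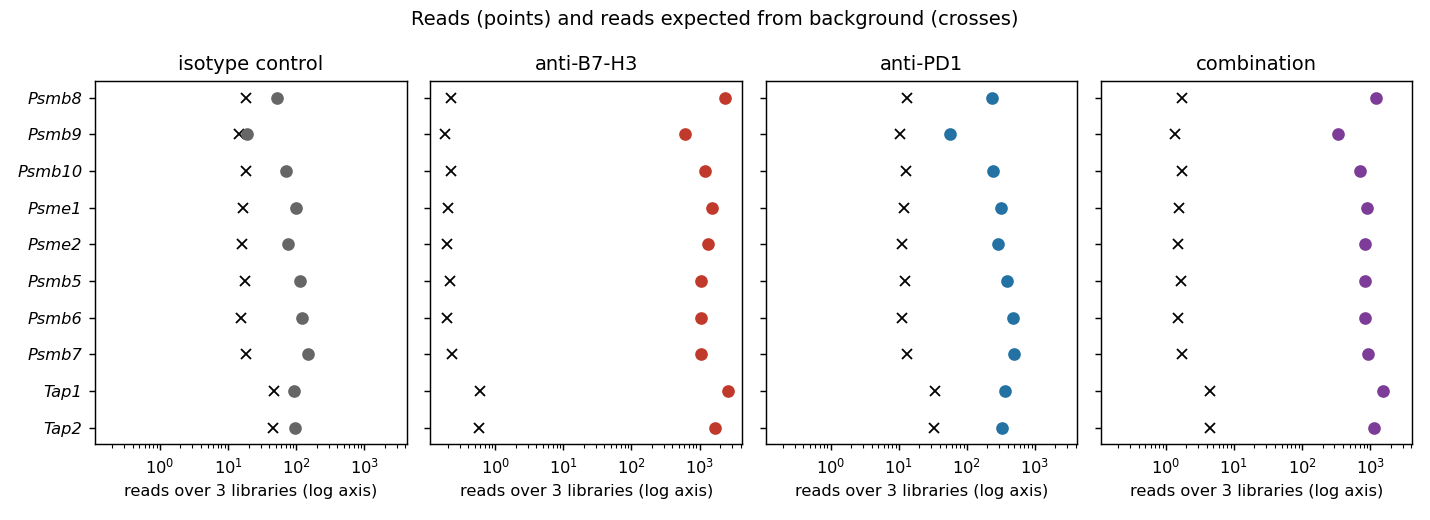
Reads of each member summed over the 3 libraries of a group (points) beside the reads expected from background (crosses), on a log axis, 1 panel per group. In isotype control libraries Psmb9 sits next to its cross, with 19 reads against 14.5 expected, while in anti-B7-H3 libraries Psmb9 has 619 reads against 0.181 expected.

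Psmb8, Psmb9 and Psmb10, the immunosubunits, were highest in anti-B7-H3 tumours, next highest in combination tumours and low in isotype control and anti-PD1 tumours. Levels are given as scaled CPM per kb, which is reads relative to the TMM-scaled library size (CPM) and per kilobase of effective gene length. In bulk tumours fewer cells of a type and less RNA per cell cannot be told apart. Psmb8, the immunosubunit with chymotrypsin-like activity, stood at 5.40, 13.5 and 12.5 scaled CPM per kb in the isotype control libraries, 90.8, 90.2 and 89.3 with anti-B7-H3, 18.1, 12.9 and 15.2 with anti-PD1, and 56.0, 57.3 and 51.4 with combination. No anti-B7-H3 or combination library came near an isotype control library, while anti-PD1 and isotype control libraries overlapped. Psmb9, the immunosubunit that lacks the caspase-like activity of the subunit it replaces, stood at 6.07, 1.77 and 6.57 scaled CPM per kb with isotype control, 34.2, 28.4 and 30.6 with anti-B7-H3, 4.27, 4.0 and 6.90 with anti-PD1, and 19.6, 24.3 and 16.9 with combination. Its isotype control values rest on 9, 2 and 8 reads, 19 in all against 14.5 expected from background. Psmb10, the immunosubunit with trypsin-like activity, stood at 16.4, 11.1 and 12.7 scaled CPM per kb with isotype control, 46.6, 46.2 and 47.3 with anti-B7-H3, 16.1, 17.3 and 13.8 with anti-PD1, and 30.9, 35.3 and 30.1 with combination. Its anti-B7-H3 libraries lay together, above every combination library, and its anti-PD1 and isotype control libraries overlapped.

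**Figure D2:**
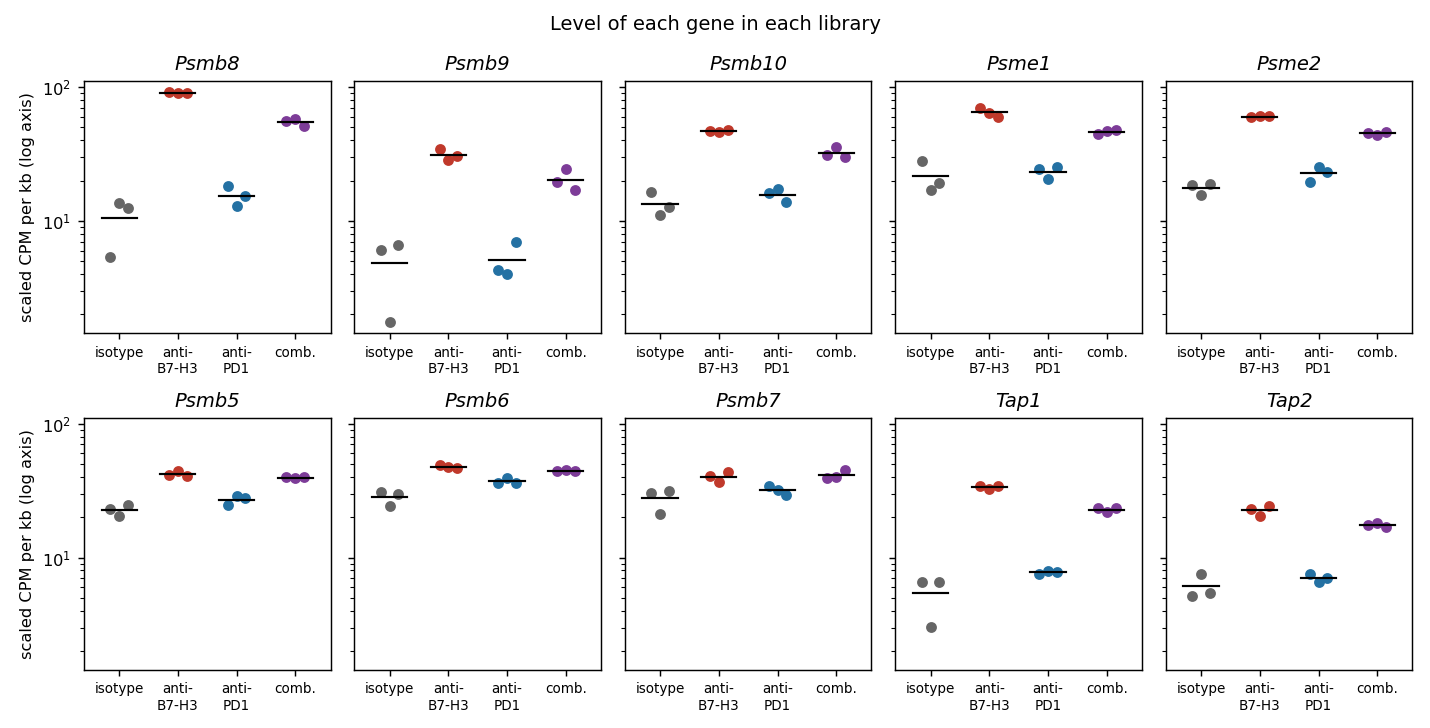
Scaled CPM per kb (log axis) of each member in each of the 12 libraries, with points for libraries and bars for group means. The immunosubunits, PA28 and Tap genes separate anti-B7-H3 and combination libraries from the rest by wide margins, whereas Psmb5, Psmb6 and Psmb7 span a narrow range.

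Psmb9, Tap1, Psmb8 and Tap2 lie next to each other in the MHC class II region of chromosome 17, at GRCm38 positions chr17:34181987-34187764 on the minus strand and chr17:34187553-34197225, chr17:34197721-34201454 and chr17:34203527-34216321 on the plus strand. The start sites that RefSeq gives for Psmb9 (34187330) and Tap1 (34187556) face away from each other across 225 bases, so both genes share 1 upstream region. Exons of longer transcripts in GENCODE cover all of it, and the annotated 5′ ends of the genes overlap. The sources used here do not give the strand setting of the counting, so reads from such an overlap are uncertain. The same holds for Psmb8, Tap2, Psmb10, Psmb7 and Psme1, which overlap other annotated genes. The region holds a match to the CCAAT box and a match to the GC box GGGCGG on the minus strand, shown here with their neighbours in the sense of Tap1, the matches in capitals and positions from GRCm38.p6.
CCAAT site, chr17:34187322-34187351: gggctcggctttCCAATcagcggctgcgcg
GC box site, chr17:34187368-34187397: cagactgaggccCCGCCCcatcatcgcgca

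The 250 bases before the start sites of 8 members were searched on both strands, with all 32851 windows of that length in the RefSeq table (build GRCm38.p6) as the comparison. Psmb7 and Tap2 have no entry in that table. The core of the interferon-stimulated response element (GAAA, any 2 bases, GAAA) was in 2.98% of all windows and in none of the 9 windows of members. The palindrome of the gamma-activated site, TTCNNNGAA, was in 7.02% of all windows and, among members, in that of Psmb8, at bases -97 to -89 from its RefSeq start site. All 250 bases of that window lie in annotated exons, and GENCODE starts Psmb8 before the window, at 34197721. The match therefore lies inside the gene as GENCODE bounds it. The Psme1 window also begins inside an annotated exon.
Psmb8, chr17:34198088-34198117, match in capitals: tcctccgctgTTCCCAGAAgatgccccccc
The GC box GGGCGG was in 32.7% of all windows and in those of Psmb6, Psme1, Psme2, Psmb9 and Tap1, and CCAAT was in 33.8% of all windows and in the Psmb9 and Tap1 windows. The antioxidant response core TGACNNNGC, through which Nfe2l1 is known to raise constitutive proteasome genes, was in 10.2% of all windows and in those of Psmb5 and Psmb6 among members. The NF-kappaB consensus was in 7.25% of all windows and in no window of a member.

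The stretches below show upstream sequence of 2 constitutive subunits and 2 inducible members, cut where the first annotated exon begins, with every match to the motifs above in capitals. Each reads 5′ to 3′ in the sense of its gene, on build GRCm38.p6.
Psmb5, chr14:54618023-54618245, minus strand: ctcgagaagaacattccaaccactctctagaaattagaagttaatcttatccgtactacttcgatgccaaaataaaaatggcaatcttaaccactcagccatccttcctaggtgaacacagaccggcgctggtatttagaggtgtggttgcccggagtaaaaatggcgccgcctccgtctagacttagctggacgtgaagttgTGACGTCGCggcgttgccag
Psmb6, chr11:70525107-70525356, plus strand: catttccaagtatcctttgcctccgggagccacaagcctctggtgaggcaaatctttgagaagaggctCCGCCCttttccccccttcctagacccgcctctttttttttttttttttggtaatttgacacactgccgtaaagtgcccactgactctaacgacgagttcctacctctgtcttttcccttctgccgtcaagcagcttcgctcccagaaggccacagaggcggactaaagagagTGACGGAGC
Psmb10, chr8:105938445-105938642, minus strand: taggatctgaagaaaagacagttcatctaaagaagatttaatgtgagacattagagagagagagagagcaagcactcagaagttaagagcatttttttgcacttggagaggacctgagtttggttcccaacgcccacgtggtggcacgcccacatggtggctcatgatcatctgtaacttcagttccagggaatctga
Psme2, chr14:55591114-55591351, minus strand: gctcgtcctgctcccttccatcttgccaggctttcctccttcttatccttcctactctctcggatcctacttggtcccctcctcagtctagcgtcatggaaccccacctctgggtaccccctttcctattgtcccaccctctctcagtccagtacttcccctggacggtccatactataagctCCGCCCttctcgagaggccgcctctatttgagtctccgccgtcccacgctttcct
The Psmb5 and Psmb6 stretches each hold the antioxidant core close to the start, Psmb6 and Psme2 each hold a GC box, and the Psmb10 stretch holds no match.

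Of the PA28 genes, Psme1 (chr14:55578123-55581529), which encodes the alpha subunit, stood at 28.2, 17.0 and 19.2 scaled CPM per kb with isotype control, 69.3, 64.2 and 59.7 with anti-B7-H3, 24.2, 20.4 and 25.1 with anti-PD1, and 44.1, 46.6 and 47.7 with combination. Psme2 (chr14:55587441-55591113), which encodes the beta subunit, stood at 18.5, 15.6 and 18.8 scaled CPM per kb with isotype control, 59.5, 60.6 and 60.2 with anti-B7-H3, 19.6, 25.3 and 23.3 with anti-PD1, and 45.2, 43.7 and 46.2 with combination. Both genes followed the order of the immunosubunits, with anti-B7-H3 above combination and combination above the other groups in every library. The level of Psme1 per level of Psme2 averaged 1.21 ± 0.275 (SD, n = 3) in isotype control, 1.07 ± 0.0871 with anti-B7-H3, 1.04 ± 0.218 with anti-PD1 and 1.03 ± 0.0456 with combination, and it overlapped between groups in all 6 pairwise comparisons. Psme2b, a near-identical copy of Psme2 on chromosome 11, held 14, 121, 30 and 81 reads in isotype control, anti-B7-H3, anti-PD1 and combination libraries, against 77, 1331, 290 and 846 for Psme2.

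Of the transporter genes, Tap1 stood at 6.58, 3.05 and 6.61 scaled CPM per kb with isotype control, 33.9, 32.4 and 34.1 with anti-B7-H3, 7.51, 7.97 and 7.80 with anti-PD1, and 23.3, 21.8 and 23.4 with combination. Tap2 stood at 5.19, 7.57 and 5.47 scaled CPM per kb with isotype control, 23.1, 20.3 and 24.2 with anti-B7-H3, 7.59, 6.61 and 6.98 with anti-PD1, and 17.6, 18.2 and 16.8 with combination. In both genes the anti-B7-H3 libraries lay above the combination libraries, and these above the rest. The products pair in equal numbers in the transporter, and the level of Tap1 per level of Tap2 averaged 0.960 ± 0.483 (SD, n = 3) in isotype control, 1.49 ± 0.0972 with anti-B7-H3, 1.10 ± 0.108 with anti-PD1 and 1.30 ± 0.0971 with combination. Its anti-B7-H3 libraries, at 1.41 to 1.60, lay above those of every other group, which reached 1.27 with isotype control, 1.21 with anti-PD1 and 1.39 with combination. These ratios are without background subtraction, and expected background was 51.9% of Tap1 and 48.2% of Tap2 reads in isotype control libraries. The second isotype control library had 15 Tap1 reads against 15.5 expected, and its ratio was 0.403. Among the 6 pairwise differences none can reach an exact permutation p under 0.1, the smallest that 3 against 3 allows.

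Psmb5, Psmb6 and Psmb7, the constitutive subunits with chymotrypsin-like, caspase-like and trypsin-like activity, varied far less. Psmb5 (chr14:54614119-54618022) stood at 22.9, 20.4 and 24.7 scaled CPM per kb with isotype control, 41.5, 44.2 and 40.9 with anti-B7-H3, 24.6, 28.6 and 28.0 with anti-PD1, and 39.6, 39.1 and 39.8 with combination. Psmb6 (chr11:70525367-70527858) stood at 30.6, 24.3 and 29.9 with isotype control, 48.9, 47.4 and 46.6 with anti-B7-H3, 36.0, 39.3 and 36.0 with anti-PD1, and 44.1, 44.8 and 44.3 with combination, also in scaled CPM per kb. Psmb7 (chr2:38588036-38644087) stood at 30.3, 21.1 and 31.4 scaled CPM per kb with isotype control, 40.9, 36.4 and 43.1 with anti-B7-H3, 34.1, 31.8 and 29.5 with anti-PD1, and 39.0, 39.7 and 44.9 with combination. For Psmb5 and Psmb6 the anti-B7-H3 libraries lay just above the combination libraries, and for Psmb7 these groups overlapped.

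The order of the 10 members by level changed between groups. In isotype control tumours the constitutive subunits led, with means of 28.3 ± 3.42 scaled CPM per kb (SD, n = 3) for Psmb6, 27.6 ± 5.68 for Psmb7 and 22.7 ± 2.12 for Psmb5, and Psmb9 was lowest at 4.80 ± 2.64. Each pair of neighbours in that order except Psme2 and Psmb10 differed in mean by less than the larger of their SDs. In anti-B7-H3 tumours Psmb8 led at 90.1 ± 0.776, followed by Psme1 at 64.4 ± 4.82 and Psme2 at 60.1 ± 0.557, and the constitutive subunits stood at 40.1 to 47.6. The anti-PD1 order kept Psmb6, Psmb7 and Psmb5 on top at 37.1, 31.8 and 27.1, with Psmb9 again lowest at 5.06 ± 1.60. Combination tumours had Psmb8 first at 54.9 ± 3.11 and Tap2 last at 17.5 ± 0.693, and Psme1, Psme2 and Psmb6 followed Psmb8 closely together, at 46.2 ± 1.84, 45.0 ± 1.29 and 44.4 ± 0.348.

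Whether tumours changed the immunosubunits relative to the subunits they replace was asked with 3 ratios taken within each library, which need no scaling between libraries. All 3 differed over the 4 groups (exact permutation test of the F statistic over every assignment of the 12 libraries, Benjamini-Hochberg over the 3 ratios). The Psmb8 to Psmb5 ratio was 0.236, 0.660 and 0.507 with isotype control, 2.19, 2.04 and 2.19 with anti-B7-H3, 0.734, 0.451 and 0.545 with anti-PD1, and 1.41, 1.46 and 1.29 with combination (exact p = 0.00110, adjusted 0.00166). Psmb8 thus exceeded Psmb5 per kilobase in every anti-B7-H3 and combination library and in no isotype control or anti-PD1 library. The Psmb9 to Psmb6 ratio was 0.198, 0.0726 and 0.220 with isotype control, 0.698, 0.599 and 0.655 with anti-B7-H3, 0.118, 0.102 and 0.192 with anti-PD1, and 0.445, 0.543 and 0.381 with combination (exact p = 0.00318, adjusted 0.00318), below 1 in every library. The Psmb10 to Psmb7 ratio was 0.543, 0.525 and 0.404 with isotype control, 1.14, 1.27 and 1.10 with anti-B7-H3, 0.471, 0.544 and 0.468 with anti-PD1, and 0.792, 0.891 and 0.670 with combination (exact p = 0.000519, adjusted 0.00156). It passed 1 in the anti-B7-H3 libraries and in no other library.

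**Figure D3:**
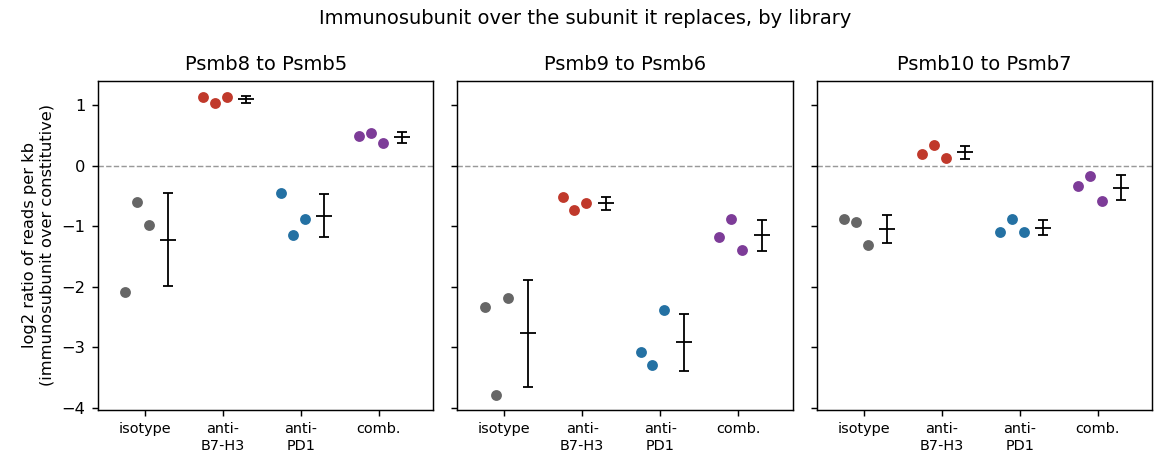
Log2 ratio of reads per kb of each immunosubunit over the constitutive subunit it replaces, with a point per library and bars for the group mean ± SD (n = 3). In each panel anti-B7-H3 libraries lie highest and combination libraries second, with no overlap, while isotype control and anti-PD1 libraries overlap.

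In anti-B7-H3 against isotype control tumours the ratios were 4.98-fold, 4.43-fold and 2.40-fold higher for Psmb8, Psmb9 and Psmb10 (log2 differences of 2.32 ± 0.45, 2.15 ± 0.51 and 1.26 ± 0.15, SE, n = 3 per group). In combination against isotype control tumours they were 3.23-fold, 3.07-fold and 1.60-fold higher. The combination ratios were 0.649, 0.695 and 0.668 of those in anti-B7-H3 tumours, without overlap in any of the 3. Anti-PD1 and isotype control tumours overlapped in all 3 ratios, with log2 differences of 0.40 ± 0.49, -0.15 ± 0.58 and 0.02 ± 0.15. Each non-overlapping pair has an exact permutation p of 0.1, the smallest possible with 3 against 3. With expected background reads subtracted from both genes, the log2 differences between anti-B7-H3 and isotype control were larger, at 2.82, 3.10 and 1.52.

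Summed over the 6 catalytic subunits, the immunosubunits made up 26.8% ± 1.79 (SD, n = 3) of the level per kilobase in isotype control, 56.4% ± 0.259 with anti-B7-H3, 27.4% ± 1.68 with anti-PD1 and 46.1% ± 2.70 with combination tumours. By library the share was 25.0%, 28.6% and 27.0% with isotype control and 28.8%, 25.5% and 27.8% with anti-PD1, which overlapped. It was 56.6%, 56.3% and 56.1% with anti-B7-H3 and 46.5%, 48.6% and 43.3% with combination, and these groups overlapped with no other. With expected background subtracted, the isotype control share was 21.7% ± 2.14 and the others were 56.4%, 26.4% and 46.1%.

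Blocking B7-H3 alone was set against isotype control. All 10 members rose (edgeR quasi-likelihood test, Benjamini-Hochberg adjusted p under 0.05 over all genes tested), against 30.8% of all genes tested that were called higher. The median log2 fold change of the members was 1.93, beside -0.04 over all genes tested. Psmb8 rose by 3.31 ± 0.15 (log2 fold change ± SE, adjusted p = 1.44e-30), Psmb9 by 2.84 ± 0.27, Tap1 at 2.64 ± 0.12, Tap2 at 1.96 ± 0.13, Psme2 at 1.94 ± 0.14, Psmb10 at 1.92 ± 0.15 and Psme1 at 1.72 ± 0.14. The constitutive subunits had the smallest rises, 1.05 ± 0.13 for Psmb5, 0.92 ± 0.13 for Psmb6 and 0.67 ± 0.13 for Psmb7 (adjusted p = 6.62e-06). The 11 barrel subunits that both forms share all rose too, with a median of 1.05, and the values of Psmb5, Psmb6 and Psmb7 lay at or below that median. After subtraction of expected background 6 of these 11 were called higher, with a median of 0.46. With expected background reads subtracted Psmb9 stood above Psmb8, at 3.45 against 3.12. Then 8 of the 10 were called, and Psmb6 at 0.29 (adjusted p = 0.0751) and Psmb7 at 0.04 (adjusted p = 0.833) were not. With libraries scaled on the shared barrel subunits, which moves the median of all genes to -1.18, the 7 inducible members were still called higher, from 0.58 for Psme1 to 2.17 for Psmb8, while Psmb5 stood at -0.09, Psmb6 at -0.22 and Psmb7 was lower at -0.47 (adjusted p = 0.00240).

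Blocking PD1 alone was set against isotype control next. Called members were 3 of 10, all higher, against 17.5% of all genes tested: Psmb8 at 0.66 ± 0.21 (log2 fold change ± SE, adjusted p = 0.0107 in edgeR), Tap1 at 0.50 ± 0.16 (adjusted p = 0.0113) and Psmb6 at 0.43 ± 0.14 (adjusted p = 0.0111). Anti-PD1 libraries of Psmb8 reached down to 8.29 scaled CPM, below the highest isotype control library at 8.40, so these groups overlapped. The other members had log2 fold changes from 0.08 ± 0.40 for Psmb9 to 0.40 ± 0.18 for Psme2, and none passed the test. With expected background subtracted, edgeR called 0 of 10, and 3 had an unadjusted p under 0.05. The fold of Psmb8 was then 0.64 (adjusted p = 0.127) and that of Tap1 0.81 (adjusted p = 0.123), beside 0.66 and 0.50 without subtraction, while Psmb6 stood at 0.02 (adjusted p = 0.976). With no filter on low counts, or with satellite-like genes left out, 7 of 10 were called higher. Scaled on the shared barrel subunits it also called 0, none of them at an unadjusted p under 0.05, and Psmb6 stood at -0.01. Leaving out the second isotype control library left 1 call, with Tap1 at 0.24 (adjusted p = 0.329) and Psmb6 at 0.33 (adjusted p = 0.105), and Psmb8 fell to 0.29 (adjusted p = 0.367) without the first isotype control library and to 0.51 (adjusted p = 0.0780) without the first anti-PD1 library.

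Blocking both was then set against isotype control. All 10 members rose, against 27.8% of all genes tested that were called higher, with a median log2 fold change of 1.41. Psmb8 rose by 2.56 ± 0.16 (log2 fold change ± SE, adjusted p = 3.07e-22 in edgeR), Psmb9 by 2.17 ± 0.29, Tap1 by 2.08 ± 0.13, Tap2 by 1.59 ± 0.14, Psme2 by 1.48 ± 0.15, Psmb10 by 1.34 ± 0.16 and Psme1 by 1.2 ± 0.15. Psmb5 rose by 0.92 ± 0.14, Psmb6 by 0.78 ± 0.13 and Psmb7 by 0.68 ± 0.13, below the median of 0.95 for the shared barrel subunits. With expected background subtracted 7 were called, and Psmb5 at 0.36 (adjusted p = 0.0527), Psmb6 at 0.17 (adjusted p = 0.339) and Psmb7 at 0.07 (adjusted p = 0.732) were not. Scaled on the shared barrel subunits, 6 were called higher, Psme1 at 0.25 was not (adjusted p = 0.139), and Psmb5, Psmb6 and Psmb7 stood at -0.04, -0.18 and -0.28.

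Anti-B7-H3 and anti-PD1 tumours were compared directly. Background is high in anti-PD1 libraries too, at 5.07 to 5.50 reads per kilobase, and it was 18.2% of their Psmb9 reads, 10.2% of Tap2 and 9.25% of Tap1 reads. All 10 members were higher in anti-B7-H3 tumours, against 30.4% of all genes tested. Psmb9 differed by 2.77 ± 0.18 (log2 fold change ± SE, adjusted p = 1.28e-21 in edgeR), Psmb8 by 2.65 ± 0.10, Tap1 by 2.14 ± 0.08, Tap2 by 1.71 ± 0.09, Psmb10 by 1.68 ± 0.10, Psme1 by 1.59 ± 0.10 and Psme2 by 1.53 ± 0.10. Psmb5 differed by 0.76 ± 0.09, Psmb6 by 0.49 ± 0.09 and Psmb7 by 0.44 ± 0.09. The constitutive subunits again lay near the shared barrel, whose median was 0.65, and the inducible members lay above its largest value of 1.04. With expected background subtracted Psmb7 at 0.23 was no longer called (adjusted p = 0.0579), and scaled on the shared barrel subunits Psmb6 and Psmb7 were lower, at -0.21 (adjusted p = 0.0392) and -0.26 (adjusted p = 0.0151).

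**Figure D4:**
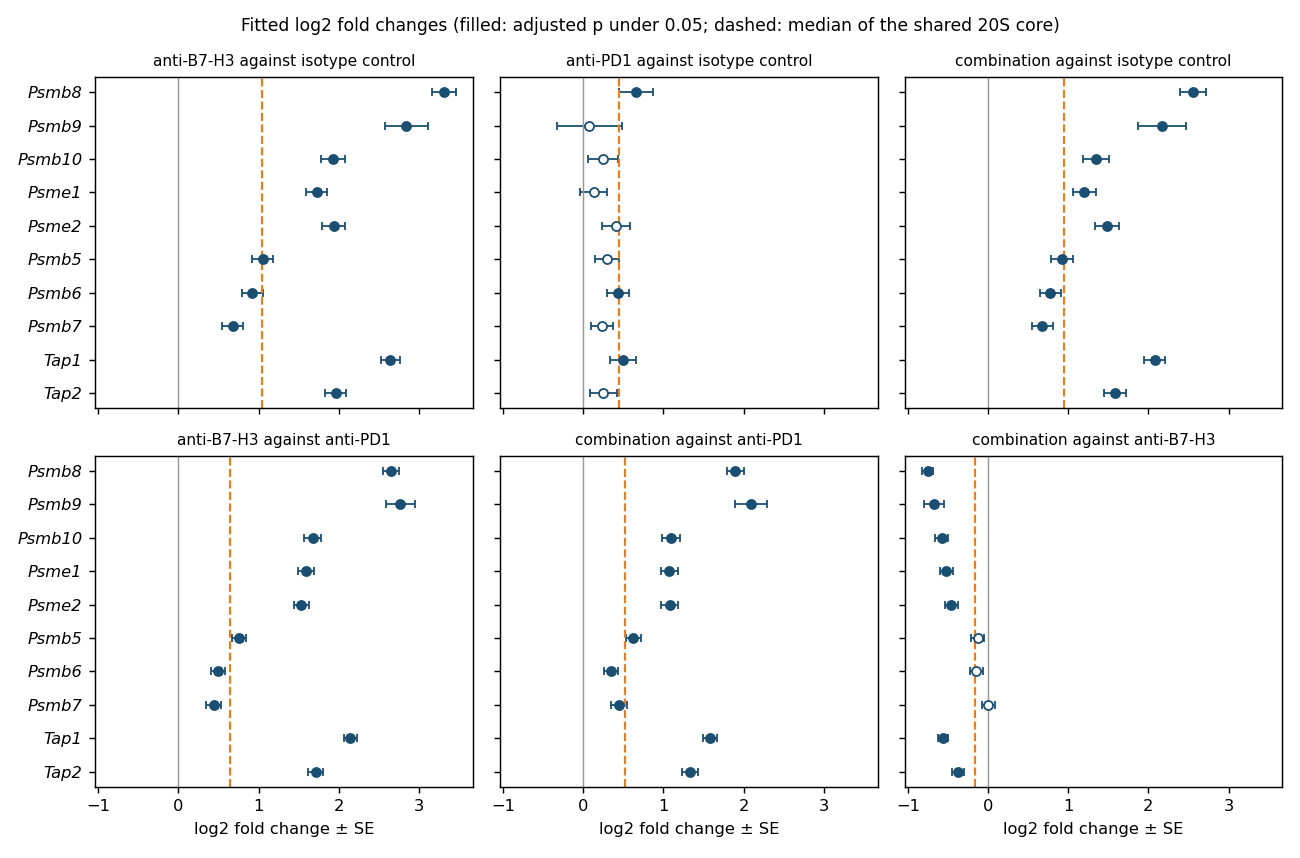
Log2 fold change ± SE of each member in the 6 pairwise comparisons, with filled points for an adjusted p under 0.05 and a dashed line at the median of the 11 shared barrel subunits. Psmb5, Psmb6 and Psmb7 sit near the dashed line in each panel. With anti-B7-H3 against isotype control, Psmb8 lies at 3.31 and the dashed line at 1.05.

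Adding anti-PD1 to anti-B7-H3 was examined by comparing the combination with anti-B7-H3 alone. The 7 inducible members fell, against 19.1% of all genes tested that were called lower, and the 3 constitutive subunits were not called. Psmb8 fell by 0.75 on the log2 scale (SE 0.07, adjusted p = 2.15e-14 in edgeR), Psmb9 by 0.68, Psmb10 by 0.58, Tap1 by 0.56, Psme1 by 0.52, Psme2 by 0.46 and Tap2 by 0.38. Psmb5 stood at -0.13 ± 0.08, Psmb6 at -0.15 ± 0.08 and Psmb7 at 0.00 ± 0.08, and none of the 3 had an unadjusted p under 0.05, while DESeq2's Wald test also called 0 and put 1 of them under that unadjusted p. With TMM factors taken from genes well above background, which moves the median of all genes to -0.06, Psmb5 and Psmb6 were called lower as well, at -0.20 (adjusted p = 0.0461) and -0.21 (adjusted p = 0.0282). Scaled on the shared barrel subunits, 6 of the 7 were called, and Tap2 at -0.19 was not (adjusted p = 0.0550). With an offset for effective length, 4 of the 7 calls remained, and Psmb8 at -0.64 (adjusted p = 0.0508), Psmb9 at -0.71 (adjusted p = 0.0972) and Tap2 at -0.36 (adjusted p = 0.509) missed the threshold.

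Adding anti-B7-H3 to anti-PD1 was examined by comparing the combination with anti-PD1 alone. All 10 members rose, against 23.1% of all genes tested that were called higher. Psmb9 rose by 2.09 ± 0.20 (log2 fold change ± SE, adjusted p = 5.22e-14 in edgeR), Psmb8 by 1.90 ± 0.10, Tap1 by 1.58 ± 0.09, Tap2 by 1.33 ± 0.10, Psmb10 by 1.10 ± 0.11, Psme2 by 1.08 ± 0.10 and Psme1 by 1.07 ± 0.10. Psmb5 rose by 0.63 ± 0.10, Psmb7 by 0.45 ± 0.10 and Psmb6 by 0.35 ± 0.09, beside a shared barrel median of 0.52. After subtraction of expected background, Psmb6 at 0.16 (adjusted p = 0.190) and Psmb7 at 0.26 (adjusted p = 0.0512) were not called, and scaled on the shared barrel subunits they stood at -0.17 and -0.07.

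The interaction asks whether both antibodies together shift a gene by more or less than adding their separate log2 effects would. It was below 0 for all 10 members and called for 8, against 17.3% of all genes tested that were called lower. The median was -0.70 for the members and -0.75 for the 11 shared barrel subunits, of which 7 were called lower. Psmb8 had the largest deficit, -1.41 ± 0.22 (log2 scale ± SE, adjusted p = 2.26e-07 in edgeR), then Tap1 at -1.06 ± 0.17. Psmb9 at -0.75 ± 0.41 and Psmb7 at -0.23 ± 0.17 were not called. Subtracting expected background left 3 calls, namely Psmb8 at -1.36 (adjusted p = 0.00109), Tap1 at -1.35 (adjusted p = 0.0137) and Tap2 at -0.83 (adjusted p = 0.00960). Of the 11 shared barrel subunits 4 were then called lower. Scaled on the shared barrel subunits, Psmb8 at -0.78 and Tap1 at -0.44 were called lower and Psmb7 at 0.40 higher.

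In anti-B7-H3 against isotype control tumours the rest of the proteasome had smaller median changes than the 7 inducible members (1.05 for the shared barrel and 0.76 for the 19S particle against 1.96 on the log2 scale), whereas in anti-PD1 against isotype control tumours its medians were the larger ones (0.45 and 0.43 against 0.25). After subtraction of expected background, those anti-PD1 medians were 0.03 for the shared barrel and 0.07 for the 19S particle. The median was then 0.06 for all 10 members, constitutive subunits included, and 0.16 over all genes. It was not taken for the 7 inducible members alone, so their order against these lists after subtraction is not given. Of 11 shared barrel subunits (7 alpha and 4 beta subunits found in both forms), all rose in anti-B7-H3 against isotype control tumours, led by Psma6, an alpha subunit, at 1.69 ± 0.16 (log2 fold change ± SE). Against anti-PD1 tumours all 11 were higher in anti-B7-H3, again with Psma6 on top at 1.04 ± 0.11, and in combination against anti-B7-H3 tumours 5 fell, at most Psmb4 by 0.31. Of 18 subunits of the 19S particle, the cap that recognises ubiquitin, all 18 rose in anti-B7-H3 against isotype control tumours with a median of 0.76, and 15 were higher than in anti-PD1 tumours with a median of 0.33. With expected background subtracted, 5 of the 18 were called higher against isotype control (median 0.18), beside a median of 0.27 over all genes. Of the 11 shared barrel subunits 6 were then called higher (median 0.46). Against anti-PD1 tumours 4 of the 18 were then higher (median 0.14). In combination against anti-B7-H3 tumours the 19S list had 1 call, Psmd8, which fell by 0.30. Of 9 tested genes for other activators, assembly factors and regulators, 4 rose and 1 fell in anti-B7-H3 against isotype control tumours. Pomp, the chaperone that completes new barrels and is known to favour the immunoproteasome, rose by 1.47 ± 0.23, and Psmg1, an assembly chaperone, fell by 0.88. Psme4, which encodes the activator PA200, was lower in anti-B7-H3 than in anti-PD1 tumours by 0.32 on the log2 scale (adjusted p = 4.57e-07 in edgeR) and higher in combination than in anti-B7-H3 tumours by 0.22. Psmb11, the thymus subunit, held 6, 1, 2 and 2 reads in isotype control, anti-B7-H3, anti-PD1 and combination libraries against 19.9, 0.249, 14.3 and 1.89 expected from background and was not tested.

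Genes that act after the transporter changed in the same comparisons. Of 9 genes of peptide loading and trimming, all 9 rose in anti-B7-H3 against isotype control tumours (median 1.62) and all 9 were higher than in anti-PD1 tumours (median 1.63). H2-K1, a class I heavy chain, rose by 4.19 ± 0.08 and was 3.13 ± 0.05 above anti-PD1 tumours on the log2 scale, and its reads may be shared with other class I genes. In combination against anti-B7-H3 tumours 7 of the 9 fell, with Tapbp, the bridge between transporter and class I molecule, lowest at -0.73 ± 0.05, and Canx, a chaperone of the endoplasmic reticulum, was the 1 that rose, by 0.19. In anti-PD1 against isotype control tumours 7 of 9 rose, led by H2-D1 at 1.21 ± 0.08. With expected background subtracted, 8 of the 9 were called higher and 1 lower in anti-B7-H3 against isotype control tumours. In anti-PD1 against isotype control tumours 4 were then called higher and 2 lower. Of 10 tested genes of interferon gamma signalling and class I control, all 10 rose in anti-B7-H3 against isotype control tumours, with a median of 1.96, and all 10 were higher than in anti-PD1 tumours. Irf1, a transcription factor that interferon gamma induces and that is known to drive Psmb9 and Tap1, rose by 3.08 ± 0.17. In isotype control libraries it had 15, 9 and 14 reads, against 7.81, 7.04 and 6.87 expected from background. All 10 fell in combination against anti-B7-H3 tumours, Socs1, a feedback inhibitor of the pathway, by the most at -1.28 ± 0.21. Against anti-PD1 tumours the combination had 9 of the 10 higher, led by Nlrc5, the activator of class I genes, at 1.39 ± 0.09. With expected background subtracted, 9 of the 10 were called higher in anti-B7-H3 against isotype control tumours. Ifng itself was not among the genes tested.

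The same lists in the other comparisons gave smaller or fewer changes for anti-PD1 alone. Against isotype control, anti-PD1 tumours had 7 of 11 shared barrel subunits higher, led by Psma1, an alpha subunit, at 0.91 ± 0.17 (log2 fold change ± SE), and 12 of 18 subunits of the 19S particle, led by Psmc5, one of its ATPases, at 0.79 ± 0.17. With expected background subtracted, 1 of the 11 and 1 of the 18 were called higher, and 1 shared barrel subunit lower. In combination against isotype control tumours 5 of the 11 and 5 of the 18 were then higher. Of the activators and assembly factors 2 rose, led by Psme4 at 0.52 ± 0.07, and 2 fell, with Psmg3 lowest at -1.48 ± 0.60. Of the interferon gamma genes 6 rose, led by Irf1 at 1.13 ± 0.23, and Irf2, a factor that competes with Irf1, fell by 0.50. With expected background subtracted, 4 of the interferon gamma genes were called higher and 2 lower. Combination tumours against isotype control had 10 of 11 shared barrel subunits higher (Psma6 at 1.54 ± 0.17), 18 of 18 of the 19S particle (Psmc5 at 1.13 ± 0.16), 3 of 9 activators and assembly factors (Pomp at 1.44 ± 0.23), 9 of 9 loading and trimming genes (H2-K1 at 3.59 ± 0.08) and 8 of 10 interferon gamma genes (Irf1 at 2.16 ± 0.19). Combination tumours against anti-PD1 tumours had 10, 15, 3, 9 and 9 higher in the same lists, led by Psma6 at 0.88 ± 0.11, Psmd14, the deubiquitinase of the 19S particle, at 0.65 ± 0.10, Pomp at 0.89 ± 0.15, H2-K1 at 2.53 ± 0.06 and Nlrc5. The interaction was called lower for 7 shared barrel subunits (Psma7 at -1.02 ± 0.16), 12 of the 19S particle (Psmc5 at -0.80 ± 0.19), 3 activators and assembly factors (Psmf1 at -1.03 ± 0.40, with Psmg1 higher at 1.35 ± 0.35), 7 loading and trimming genes (H2-D1 at -1.72 ± 0.09) and 9 interferon gamma genes (Irf1 at -2.05 ± 0.23). With expected background subtracted, 4 shared barrel subunits, 5 loading and trimming genes and 7 interferon gamma genes were called lower. None of the 19S particle or of the activators and assembly factors was then lower. In each of these lists 1 gene was higher, as were 2 loading and trimming genes. Scaled on the shared barrel subunits, which moves the median of all genes to 0.67, 6 of the 19S particle were higher and 0 lower.

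**Figure D5:**
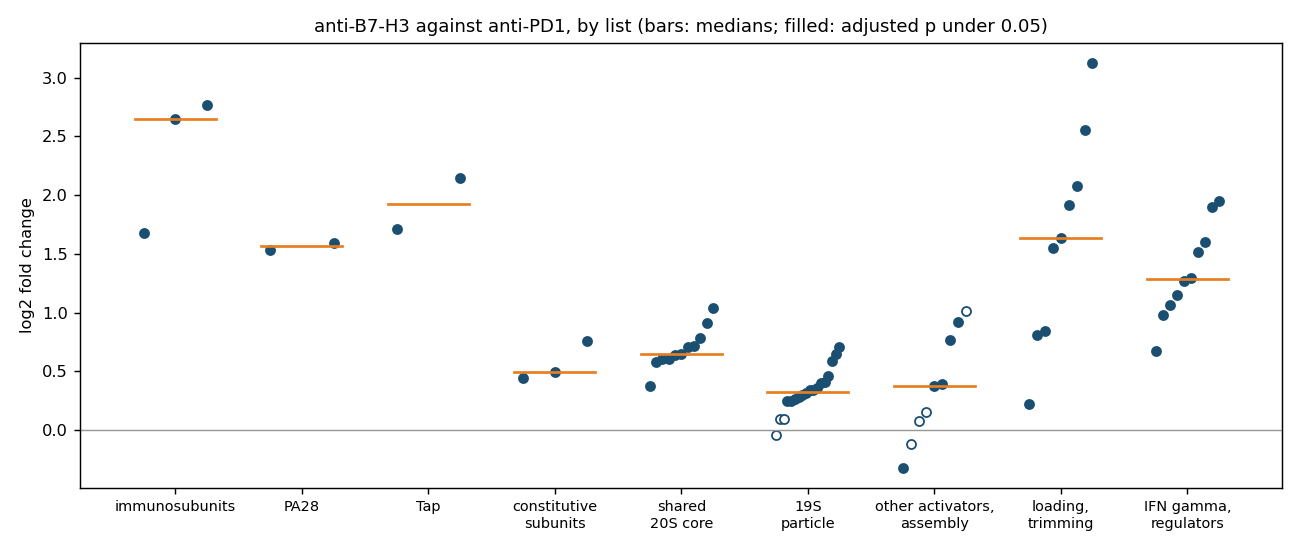
Log2 fold change in anti-B7-H3 against anti-PD1 tumours for members by role and for the other lists, with 1 point per gene, filled where the adjusted p was under 0.05, and bars at medians. Immunosubunits, PA28 and Tap genes lie at 1.53 to 2.77, constitutive subunits at 0.44 to 0.76, the shared barrel at 0.37 to 1.04 and the 19S particle at -0.04 to 0.71.

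Among 5499 genes with a mean of at least 10 scaled CPM, those whose log2 levels over the 12 libraries were most like the mean of Psmb8, Psmb9 and Psmb10 included Xdh, Ctsb, Acp5 and Thbs2, with Pearson's r from 0.994 to 0.996. Xdh encodes xanthine dehydrogenase, Ctsb a lysosomal protease, Acp5 an acid phosphatase of macrophages and osteoclasts, and Thbs2 a matrix glycoprotein. The same measure was 0.986 for Psme2, 0.983 for Tap1, 0.972 for Psme1, 0.969 for Tap2, 0.975 for Psmb5, 0.930 for Psmb6 and 0.881 for Psmb7. These values describe 12 libraries that fall into 4 groups and share library make-up and background, so many genes that follow the groups score high.

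Markers of macrophages and of all leukocytes changed in the same comparisons as the inducible members, and those of fibroblasts did so only in part. Summed levels of T, B and natural killer cell markers did not follow the same order, but their isotype control reads lay near the expected background. Summed scaled CPM of 10 macrophage markers ran from 308 to 330 with isotype control, 2591 to 2615 with anti-B7-H3, 433 to 457 with anti-PD1 and 1288 to 1293 with combination libraries, and all 10 markers rose in anti-B7-H3 against isotype control tumours while 9 of 10 fell in combination against anti-B7-H3 tumours. The 3 markers of all leukocytes summed to 36.8 to 47.0, 282 to 296, 57.7 to 59.3 and 144 to 152 scaled CPM in the same order. Dendritic cell markers summed to 42.4 to 52.7, 144 to 152, 44.5 to 48.7 and 73.0 to 81.2, and endothelial markers to 35.7 to 40.8, 58.2 to 62.2, 26.9 to 29.9 and 43.5 to 47.7. Both lists were split in anti-B7-H3 against isotype control tumours. Of 6 tested dendritic cell markers 3 rose and 2 fell, and of 4 endothelial markers 2 rose and 2 fell. Their isotype control reads were 394 and 319, against 262 and 263 expected from background. Fibroblast markers summed to 1755 to 2022, 6521 to 6664, 3863 to 4099 and 4229 to 4287 scaled CPM, and 6 of 6 rose in anti-B7-H3 against isotype control tumours (median 1.65) and 6 of 6 fell in combination against anti-B7-H3 tumours. Only 3 of the 6 rose in combination against isotype control tumours. Against anti-PD1 tumours the combination had 2 of the 6 higher (median 0.09), where all 7 inducible members were higher (median 1.33). T cell markers summed to 19.3 to 24.4, 32.3 to 36.1, 6.85 to 8.92 and 15.1 to 18.0, with 184 reads in isotype control libraries against 176 expected from background. Of these 10 markers, 8 were higher in anti-B7-H3 and 7 in combination than in anti-PD1 tumours. In combination against anti-B7-H3 tumours 6 of the 10 were lower. B cell markers summed to 9.27 to 17.2, 4.96 to 5.62, 3.32 to 3.77 and 0.592 to 2.59, and natural killer cell markers to 8.91 to 13.6, 10.3 to 10.99, 4.15 to 5.90 and 3.89 to 4.59. In combination against isotype control tumours 3 of 3 tested B cell markers and 3 of 5 natural killer cell markers were lower, where isotype control reads, 109 and 96, did not exceed the 115 and 114 expected from background. In anti-PD1 libraries T, B and natural killer cell markers held 190, 86 and 117 reads, against 126, 82.2 and 82.1 expected. Summed levels of melanocyte lineage markers went the other way, at 90.6 to 107 with isotype control and 25.5 to 28.8 with anti-B7-H3. They were 83.1 to 86.9 with anti-PD1 and 44.4 to 46.8 with combination. Sox10 alone stood at 67.1, 72.4 and 60.2 scaled CPM with isotype control and 12.8, 14.0 and 15.0 with anti-B7-H3. The 7 markers held 850 reads in isotype control libraries against 219 expected from background. Of 4 tested, 3 fell in anti-B7-H3 against isotype control tumours. In combination against anti-B7-H3 tumours 2 rose and 1 fell. Tyrp1 and Dct had 0 reads in the anti-B7-H3 libraries. Markers of keratinocytes (Krt5, Krt14 and Krt1) and of muscle (Myh4) also had 0 reads there, while muscle markers summed to 75.6 to 80.5 with combination libraries against 21.0 to 28.0 with isotype control. Isotype control reads were 209 for muscle and 218 for keratinocyte markers, against 189 and 149 expected from background. The part of these cells in the levels of the members was not tested.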

How the data were processed

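Whole-tumour RNA was depleted of ribosomal RNA and sequenced from 12 libraries in 4 groups of 3, per the labels' protocols. The authors deposited 1 table of transcripts per library with estimated counts, which need not be whole, TPM and lengths, per the file headers. FastQC 0.11.8 and build GRCm38 are named in the submitters' processing notes, and the sources used here give neither the quantifier nor its strand setting. Of the deposited transcript lengths, 87.3% are multiples of 3, so most may be coding lengths, which was not compared with the annotation.

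Estimated counts were summed per gene (57473 of 58083 transcripts matched GENCODE M21) and rounded to whole numbers, and the deposited TPM values were not used as measurements. edgeR 4.0.16 (R 4.3.3, TMM, filterByExpr, robust quasi-likelihood test) was fitted to all 12 libraries with 1 mean per group and 13478 genes. Genes were called at an adjusted p under 0.05 (Benjamini-Hochberg within a comparison). The script was tested on simulated data. Ratios were tested exactly in Python 3.11.15. Members and lists were chosen with earlier results of these data known. The text names all members, in each list the called gene with the largest change each way, and the 5 genes most like the mean of Psmb8, Psmb9 and Psmb10, of which 1 is not reported here. Alternatives covered tool (DESeq2 1.42.0), scaling, filter, length, background, satellite-like genes, gene copies, spread, the replicate block and each library left out. Within groups, counts of library pairs differed by more than sampling noise, with a median chi-square of 0.546 to 1.03 against 0.455 for noise. Pairs from different groups had 2.33 to 12.9. No library was therefore left out as a copy of another. This measure cannot tell libraries of separate mice from repeat libraries of 1 tumour.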

Additional observations from a re-analysis of the deposited data

Results flagged for a closer look

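The effect of adding anti-PD1 differed with and without anti-B7-H3 for 8 of the 10 members, by the interaction term of the edgeR fit (adjusted p under 0.05). All 8 were called lower, against 17.3% of all genes tested. Of the 11 shared barrel subunits 7 were called lower too, with a median of -0.75 beside -0.70 for the 10 members. The differences on the log2 scale were -1.41 for Psmb8, -1.06 for Tap1, -0.86 for Psme2, -0.83 for Psmb10, -0.65 for Psme1, -0.63 for Tap2, -0.58 for Psmb6 and -0.42 for Psmb5. With expected background subtracted, Psmb8, Tap1 and Tap2 were still called. Scaled on the shared barrel subunits, Psmb8 at -0.78 and Tap1 at -0.44 were called lower among these 8, Psmb5 at 0.20 and Psmb6 at 0.05 lay above 0, and Tap2 stood at 0.000397. Psmb5 lost its call in 5 of the 12 fits that left out 1 library, and Tap2 stood at -0.50 (adjusted p = 0.0503) without the first isotype control library.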

How the results depend on the processing

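Of the counts of called members under all alternatives, 163 kept within 1.5 times of the reported count and 18 did not, and all 48 alternatives of the ratios kept direction and call. Members' fold changes kept both in 1684 cases, lost the call in 62, gained it in 21 and turned in 15. Scaled on the shared barrel subunits, these turned: Psmb5 at -0.0934, Psmb6 at -0.22 and Psmb7 at -0.47 in anti-B7-H3 against isotype control; Psmb6 at -0.00834 in anti-PD1 against isotype control; Psmb5 at -0.0396, Psmb6 at -0.18 and Psmb7 at -0.28 in combination against isotype control; Psmb6 at -0.17 and Psmb7 at -0.0727 in combination against anti-PD1. Psmb6 at -0.21 and Psmb7 at -0.26 turned in anti-B7-H3 against anti-PD1, and Psmb5 at 0.20, Psmb6 at 0.0477, Psmb7 at 0.40 and Tap2 at 0.000397 in the interaction. This scaling called 6 members in combination against isotype control, 0 in anti-PD1 against isotype control and 3 in the interaction. With 4120 genes well above background, 6 members were tested, and 6 were called in each of anti-B7-H3 and combination against isotype control and against anti-PD1, 0 in anti-PD1 against isotype control and 4 in the interaction. Anti-PD1 against isotype control had 7 called members with no filter and 7 without satellite-like genes. It had 0 after subtraction of background, 0 where TMM factors came from genes well above background, and 0 when subtraction was combined with leaving out satellite-like genes. The last 2 of these were chosen after seeing the data. The interaction had 3 with background subtracted and 3 with both steps. An effective-length offset left 4 in combination against anti-B7-H3. The cause was not tested. Leaving out 1 library gave 1 to 4 called members in anti-PD1 against isotype control, 6 to 8 in the interaction, 7 in combination against anti-B7-H3 and 10 elsewhere.

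Over all genes, anti-B7-H3 against isotype control had 8641 calls, against 15111 with DESeq2's Wald test, 16711 with no filter and 2841 among the 4120 genes. Anti-PD1 against isotype control had 5164, against 7851, 10021 and 1449 in the same order, 8566 without satellite-like genes, 3006 with background subtracted and 3248 with both. Combination against isotype control had 7727, against 13860, 15865 and 2421. Combination against anti-PD1 had 6271, against 9460, 11406 and 2358, and 3522 with the length offset. Anti-B7-H3 against anti-PD1 had 8356, against 13025, 14594 and 3010. Combination against anti-B7-H3 had 5254, against 2365 with the length offset and 2054 among genes well above background. The interaction had 4900, against 7352 with no filter, 2865 with the offset, 1922 among genes well above background and 7394 scaled on the shared barrel (6908 higher and 486 lower). Libraries with the same replicate number did not deviate together (correlations of -0.0361 to 0.0435 in 18 pairs). With the replicate block, the counts of called members were 10, 3, 10, 7, 10 and 10 in the pairwise comparisons and 7 in the interaction, where Psmb5 at -0.42 had an adjusted p of 0.0504. Depth limits Psmb9 most, with 19 reads in the isotype control group.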
